A study of Mus musculus with 16 samples.

Results

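Expression in P19CL6 cultures after 10 days in medium with 1% dimethyl sulfoxide (DMSO) was compared with that in cultures of the same line after 4 days in it. The 6 arrays were taken by their labels from the 16 of the study: replicates A, B and C of day 10 and replicates A, B and C of day 4. P19CL6 is a mouse embryonal carcinoma line, derived from P19 cells, that forms beating cardiac muscle in DMSO. All 6 cultures were plated in the same serum medium with DMSO, which was replaced every 48 h, and the samples of a day were described as independent. The other arrays came from cells in growth without DMSO and from days 6, 8 and 12. No culture was kept without DMSO for as long, so the effect of DMSO cannot be told apart from that of time in culture, and the results are those of a single line.

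In the gastrulating embryo, epiblast cells enter the primitive streak under Nodal, Wnt and BMP signals and pass through a mesendoderm state, from which mesoderm and endoderm arise. Eomes and Mesp1 act in the streak cells that become heart mesoderm. Gata, Hand, Mef2 and T-box factors then act on the genes of cardiac muscle. In the sarcomere of that muscle, thin filaments of actin, troponin and tropomyosin slide along thick filaments of myosin, the Z-disc anchors the thin filaments, and calcium released from the sarcoplasmic reticulum starts contraction.

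The genes that differed between the days included cardiac muscle genes, which were higher at day 10, and mesendoderm genes, which were lower. The markers were named with the comparison, with earlier results of these data known, so their levels describe it and test nothing. Tnnt2 and Myl4 of cardiac muscle were at least 528-fold and 339-fold higher at day 10. Eomes of the mesendoderm was 146-fold and Cyp26a1 at least 297-fold lower. Values throughout are log2 signals after the authors' GCRMA processing. Signals under 4 are called dim here, and a probe set was tested when it lay above 4 on at least 3 of the 6 arrays. Where all arrays of a day were dim, the fold takes 4 as the level of that day and is given as at least that size. Where only some were dim, the signals were used as they are unless stated otherwise. A call needed a difference of at least 1 log2 and a limma p that stayed under 0.05 after Benjamini-Hochberg adjustment. Of 16917 tested probe sets that name a single gene, 2257 (13.3%) were called higher at day 10 and 2031 (12%) lower, 25.3% in all. By the brightest probe set of each gene, 1410 genes were higher (14.3% of 9832 tested, 7.75% of the 18193 on the array) and 1214 lower (12.3% and 6.67%), and the median difference over all genes was -0.00. The arrays of the days did not overlap in 55.8% of the tested probe sets.

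**Figure D1:**
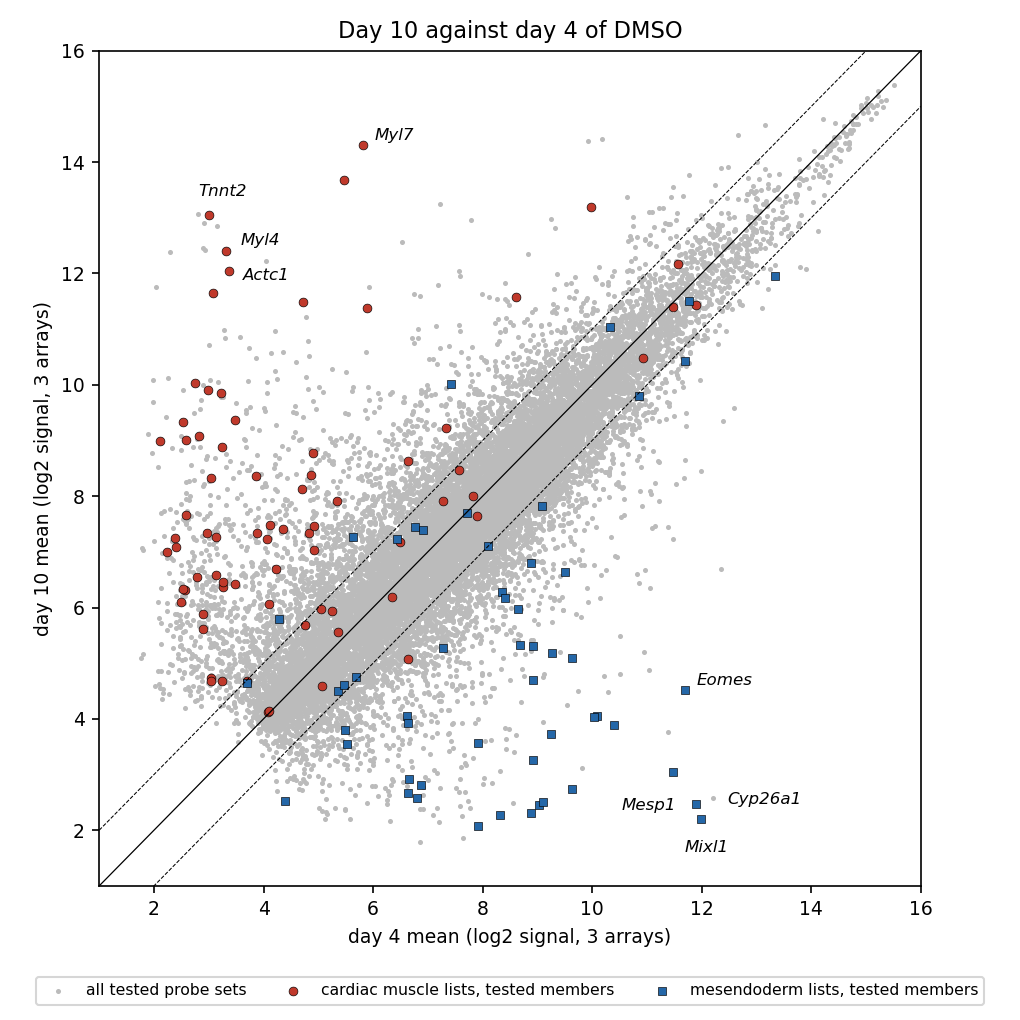
Mean log2 signal of 3 day 10 arrays (vertical) against 3 day 4 arrays (horizontal) for the 16917 tested probe sets, with tested members of the cardiac muscle lists (circles) and mesendoderm lists (squares). The solid line marks equal levels and the broken lines a difference of 1 log2. Tnnt2 lies far above the solid line, with a dim day 4 mean of 3.01, and Mixl1 far below it, with a dim day 10 mean of 2.20.

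The arrays of day 10 correlated with each other at 0.952 to 0.981 over the tested probe sets and those of day 4 at 0.975 to 0.978, while arrays of different days correlated at 0.792 to 0.846. Replicate A was the odd array of day 10, at 0.952 with B and 0.959 with C. Among 489 probe sets with an SD over 1 at day 10, it was the array farthest from the median in 422, and in 364 of these it was the lower one. The 3′ minus 5′ difference of the Actb control probe sets, a measure of RNA integrity, was 1.33 on that array, against 0.76 on B and 0.74 on C, and 0.84 ± 0.13 at day 4 (SD, n = 3). The same measure of Gapdh was -0.27 on that array, within the range of -0.40 on B and -0.24 on C. Between the days neither differed beyond the spread (two-sided exact permutation p = 0.8 for Actb and 1 for Gapdh, where 3 against 3 arrays cannot go below 0.1), and their part in the spread of day 10 was not tested. Without that array 2249 probe sets were called higher and 2025 lower, and the 54 cardiac muscle genes and 37 mesendoderm genes counted below became 55 and 34.

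Of 16 thin filament genes with a probe set, 12 were tested and 9 of these rose, or 56.25% against 7.75% of all genes on the array. The median difference over the 16 was 2.84, or 2.82 with signals under 4 set to 4. A gene bright on all arrays of only a single day passes the brightness filter through that day and had to differ, so the counts describe the lists and test nothing about them. Tnnt2, which encodes cardiac troponin T, was at 13.29, 12.90 and 12.94 in the day 10 replicates, against 3.02, 3.02 and 2.98 at day 4. All day 4 arrays were dim, so the change was a rise of at least 528-fold (adjusted p = 1.35e-06; fitted difference 10.04 ± 0.16 log2, SE, from the signals as they are).

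Actc1, the actin of cardiac muscle, was at 12.06, 12.20 and 11.87 at day 10, against 2.44, 3.41 and 4.28 at day 4 (adjusted p = 3.51e-05). Its day 4 arrays spread widely, and only replicate C passed 4. With signals under 4 set to 4 the rise was 247-fold. Tnni1, the slow skeletal troponin I that the embryonic heart uses, was at 13.65, 13.69 and 13.67 at day 10, against 6.04, 4.76 and 5.60 at day 4 (295-fold). Unlike that of Tnnt2, its signal was above the dim level on every day 4 array. The adult cardiac isoform Tnni3 averaged 9.33 ± 0.50 at day 10 and 2.53 ± 0.31 at day 4 (SD, n = 3 each), at least 40.2-fold higher.

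Nebl, which encodes nebulette, rose at least 34.0-fold, and Tnnc1, Tmod1, Tpm1 and Acta1 rose by 2.46 to 3.86 log2. Tnnc1 is the troponin C of heart and slow muscle, Tmod1 caps the thin filament end, and Acta1 is the skeletal actin, which is close in sequence to Actc1. Tnnt1, the slow skeletal troponin T, differed by 0.97 and was not called (adjusted p = 0.0593). Neither were the tropomyosins Tpm2 (0.18) and Tpm3 (-0.07). The fast skeletal troponins Tnnt3, Tnni2 and Tnnc2 were dim at both days.

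In the thick filament list 11 of 16 members rose (68.75%, against 7.75% of all genes), which were all 11 that were tested. Members dim on every day 4 array passed the brightness filter through day 10 and had to be higher. The median difference over the 16 was 3.16, or 2.97 with signals under 4 set to 4. Myl4, the atrial essential light chain of myosin, was at 12.73, 12.12 and 12.35 at day 10, against 2.91, 3.53 and 3.53 at day 4 (at least 339-fold, adjusted p = 3.62e-06). Myl7, the atrial regulatory light chain, was at 14.52, 14.30 and 14.08 at day 10, against 3.80, 6.65 and 7.01 at day 4 (357-fold, adjusted p = 0.000431). With signals under 4 set to 4 its rise was 340-fold. Every day 10 array was far above every day 4 array for both genes, but for Myl7 the day 4 cultures were unlike each other, with replicate A dim and the others not.

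Myh6, the alpha myosin heavy chain, was at 11.84, 12.13 and 10.99 at day 10, against 3.16, 3.07 and 3.00 at day 4 (at least 201-fold, adjusted p = 7.82e-06). Myh7, the beta heavy chain, averaged 6.42 ± 0.30 at day 10 and 3.47 ± 0.01 at day 4 (SD, n = 3 each), at least 5.37-fold higher. These genes are close paralogs, and a probe set of either can bind the transcript of the other. Mybpc3, a myosin binding protein, rose at least 65.3-fold, and titin, Ttn, the spring of the sarcomere, at least 29.6-fold. Unc45b, a chaperone of myosin, was at 11.50, 11.43 and 11.19 at day 10, against 7.94, 3.99 and 5.75 at day 4. It rose by 5.48 log2 (adjusted p = 0.0036), and its day 4 arrays spread widely too.

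Of the ventricular light chains, only Myl3 was bright enough to be tested. Myl3, the ventricular essential chain, rose by 2.57 log2, at 7.91 ± 0.19 at day 10 and 5.34 ± 0.05 at day 4 (SD, n = 3 each). Myl2, the ventricular regulatory chain, was at 2.93, 4.84 and 4.29 at day 10, against 2.35, 3.20 and 2.56 at day 4. It passed 4 only on day 10 replicates B and C and was not tested. Myom2, an M-band protein of adult muscle, was at 2.51, 2.43 and 2.45 at day 10, against 2.41, 5.06 and 5.07 at day 4, and was also not tested.

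**Figure D2:**
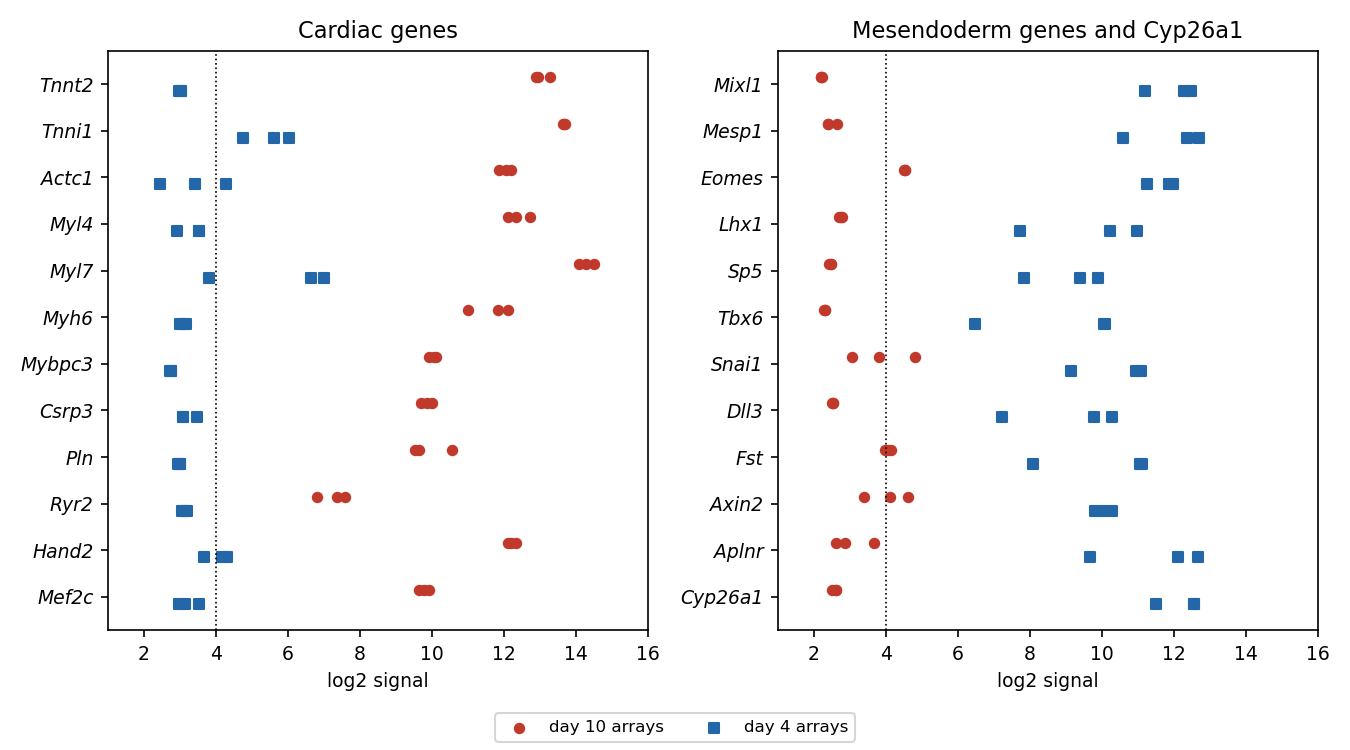
Log2 signal (horizontal) of 12 cardiac genes and 12 mesendoderm genes or Cyp26a1 on each day 10 array (circles) and day 4 array (squares), with the dim level of 4 as a dotted line. In no gene shown do the arrays of the days overlap, and day 4 replicate A is the lowest day 4 square in genes such as Lhx1 (7.71) and Tbx6 (6.47).

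Genes of the Z-disc and of the intermediate filaments that tie it to its neighbours gave 14 rises among 22 members (63.6%, against 7.75% of all genes). Of the 22, 16 were tested, and the median difference was 2.76, or 2.05 with signals under 4 set to 4. Csrp3, the muscle LIM protein, was at 10.00, 9.86 and 9.69 at day 10, against 3.10, 3.49 and 3.08 at day 4 (at least 57.7-fold). Hspb7, a small heat shock protein of heart, rose at least 31.9-fold, Nexn, an actin binding protein, at least 32.0-fold, and Cryab, a chaperone of desmin, at least 41.5-fold. These genes were dim on all day 4 arrays. Desmin itself, Des, was at 7.23 ± 0.70 at day 10 and 4.07 ± 0.19 at day 4 (SD, n = 3 each), an 8.96-fold rise. Actn2, the alpha-actinin that crosslinks actin at the Z-disc, was at 6.03, 6.85 and 5.43 at day 10 and at 2.28, 2.48 and 2.74 at day 4. Pdlim3 (-0.16) and Pdlim5 (-0.25) were tested and not called, and Tcap, Mypn, Myoz2 and Nrap, which are Z-disc genes of mature muscle, were dim at both days.

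Promoters of 3 contractile genes and of Mesp1 are shown because the first moved up together and Mesp1 moved the opposite way. Windows from 250 bases before to 50 after each gene's start were taken from RefSeq on GRCm38.p6 and searched on both strands for the CArG box, the site of serum response factor, and for CATTCCT (the M-CAT site of TEAD factors), TATAAA, TCACACCT (a T-box site) and CTTTGAT (a site of TCF and LEF factors). Of the 34 filament and Z-disc genes called higher, 32 had a window. A CArG box stood in 10 of their 48 windows (20.8%), against 2 of 36 windows (5.56%) of 27 mesendoderm genes called lower and 1.63% of all 32851 windows. Over all 54 cardiac muscle genes called higher, 46 of which had a window, the shares were lower: CArG boxes stood in 10 of 65 windows (15.4%) and CATTCCT in 13 (20.0%). CATTCCT stood in 27.1% of the filament and Z-disc windows, in 5.56% of those of mesendoderm genes and in 5.36% of all. TATAAA stood in 18.8%, 16.7% and 13.6% of the same windows, CTTTGAT in 2.08%, 8.33% and 3.73%, and TCACACCT in 2.08%, 2.78% and 1.28%. Windows of a gene with several starts can overlap, and a match describes the letters only.

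The 150 bases before the start are given 5′ to 3′ on the strand of the gene, with motif matches in capitals. They lie at chr2:114052876-114053025 on the minus strand for Actc1, chr11:5898783-5898932 on the minus strand for Myl7, chr1:135836184-135836333 on the plus strand for Tnnt2 and chr7:79793591-79793740 on the minus strand for Mesp1.
Actc1: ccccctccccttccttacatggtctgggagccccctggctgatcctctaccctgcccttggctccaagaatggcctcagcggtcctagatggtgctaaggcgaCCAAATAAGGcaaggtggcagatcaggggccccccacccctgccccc
Myl7: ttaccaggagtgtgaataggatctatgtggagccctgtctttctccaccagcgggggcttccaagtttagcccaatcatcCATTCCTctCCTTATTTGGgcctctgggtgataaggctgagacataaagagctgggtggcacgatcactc
Tnnt2: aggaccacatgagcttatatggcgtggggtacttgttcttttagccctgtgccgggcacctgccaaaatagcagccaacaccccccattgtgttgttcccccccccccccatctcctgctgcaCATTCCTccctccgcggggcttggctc
Mesp1: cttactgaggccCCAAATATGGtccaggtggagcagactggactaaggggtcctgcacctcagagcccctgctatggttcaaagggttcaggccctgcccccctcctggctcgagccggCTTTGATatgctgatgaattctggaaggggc
Only windows with a motif match in the 150 bases were printed, so a match in each follows from the choice. Matches after the start, such as a TATAAA of Actc1 and a TCACACCT of Mesp1, are not shown. Positions are counted from the start, with -1 as the last base before it. The capitals of Actc1 mark a CArG box at -47 to -38. Those of Myl7 mark a CATTCCT from -70 to -64 and, without overlap, a CArG box at -61 to -52. Those of Tnnt2 mark a CATTCCT from -27 to -21, and those of Mesp1 a CArG box at -138 to -129 and a CTTTGAT from -31 to -25.

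Of 17 calcium handling genes with a probe set, 14 were tested, 6 rose (35.3%) and 1 fell (5.88%), and the median difference was 0.69. Of all genes, 7.75% were called higher and 6.67% lower. Phospholamban, Pln, which restrains the calcium pump of the sarcoplasmic reticulum, was at 9.63, 10.57 and 9.54 at day 10, against 2.99, 3.00 and 2.94 at day 4 (at least 60.3-fold). The release channel Ryr2 was at 7.60, 7.37 and 6.81 at day 10, against 3.19, 3.15 and 3.07 at day 4 (at least 9.57-fold). Jph2, the cardiac junctophilin, rose at least 9.49-fold, as did Hrc and Trdn, which are partners of the release channel in the reticulum, at least 8.48-fold and 5.01-fold. Jph1, the skeletal junctophilin, fell by 1.56 log2 to 5.07 ± 0.28 at day 10, against 6.63 ± 0.18 at day 4 (SD, n = 3 each). With its probe sets averaged Jph1 differed by -0.90 and was not called.

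The pump itself, Atp2a2, was bright at both days, at 12.17 ± 0.13 at day 10 and 11.58 ± 0.02 at day 4 (SD, n = 3 each). Its brightest probe set differed by 0.59 (adjusted p = 0.0159), under the 1 log2 asked for a call, while 3 of its 4 tested probe sets were called higher. The sodium and calcium exchanger Slc8a1 was at 3.95, 8.17 and 6.99 at day 10, against 2.63, 4.50 and 2.65 at day 4. Day 10 replicate A lay under day 4 replicate B, so the days overlapped, and the difference of 3.11 was not called (adjusted p = 0.0586). It was called without that day 10 array (4.32, adjusted p = 0.00533), with array weights (3.65, adjusted p = 0.0155) and with the replicate letter as a block (adjusted p = 0.0179). Casq2, the cardiac calsequestrin, differed by 0.05, and Sln, an inhibitor of the pump in atria, was dim at both days.

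Of 22 ion channel and connexin genes, 13 were tested and 7 rose (31.8%, against 7.75% of all genes), with a median difference of 0.19. The potassium channel Kcnh2 was at 8.36 ± 0.28 at day 10 and 3.86 ± 0.53 at day 4 (4.25 log2 higher with signals under 4 set to 4), and the T-type calcium channel Cacna1h at 7.41 ± 0.18 and 4.36 ± 0.31 (8.27-fold; SD, n = 3 each). In growth cells Kcnh2 averaged 7.36, above its day 4 level. Popdc2, a membrane protein of striated muscle, and the potassium channel Kcna5 rose at least 7.99-fold and 5.86-fold. The gap junction gene Gja1 was high at both days, at 11.43 ± 0.29 at day 10 and 11.89 ± 0.18 at day 4, and was not called (adjusted p = 0.113). Gja5, the atrial and conduction connexin, and Kcnj2, the channel of the resting current, were dim at both days.

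Among 17 genes of cardiac hormones and muscle metabolism, 8 were tested and 7 rose (41.2%, against 7.75% of all genes). The median difference was 1.38, or 0.88 with signals under 4 set to 4. Pgam2, the muscle phosphoglycerate mutase of glycolysis, was at 12.07, 11.31 and 11.06 at day 10, against 6.25, 3.12 and 4.82 at day 4 (108-fold, adjusted p = 0.000796). With signals under 4 set to 4 its rise was 87.8-fold. The muscle subunits of cytochrome oxidase Cox6a2 and Cox7a1 rose 9.51-fold, with signals under 4 set to 4, and at least 5.98-fold, and Lpl, the lipase that supplies fatty acids, 7.77-fold. Cox7a1 was not dim in growth cells, where it averaged 6.69, against 6.58 at day 10. The natriuretic peptide genes Nppa and Nppb and the creatine kinases Ckm and Ckmt2 were dim on all 6 arrays. Over all cardiac muscle lists, 54 of 110 genes with a probe set rose (49.1%) and Jph1 fell, 19 were tested without a call and 36 were not tested.

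**Figure D3:**
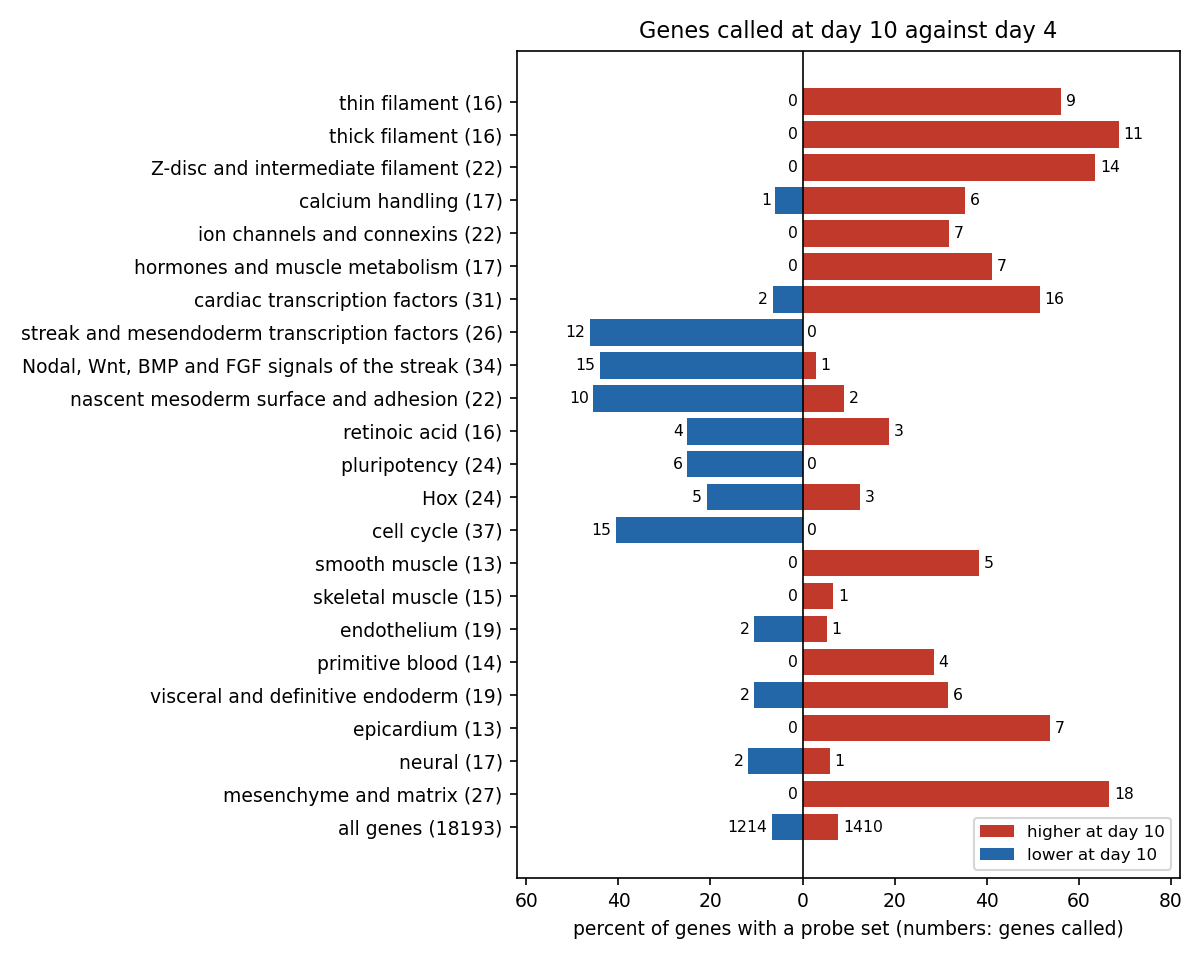
Percent of the genes with a probe set in each list (number in parentheses) that were called higher at day 10 than at day 4 (right) or lower (left), with the counts at the bar ends. The contractile lists reach 56.25 to 68.75% to the right and the mesendoderm lists 44.1 to 46.2% to the left, against 7.75 and 6.67% for all genes.

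Cardiac transcription factors moved in both directions. Of 31 with a probe set, 23 were tested, 16 rose (51.6%) and 2 fell (6.45%), against 7.75% and 6.67% of all genes. The median difference was 1.97, or 1.58 with signals under 4 set to 4. Hand2, needed for growth of the ventricles, was at 12.21, 12.33 and 12.13 at day 10, against 4.30, 3.66 and 4.16 at day 4 (291-fold, adjusted p = 3.11e-06). With signals under 4 set to 4 its rise was 269-fold. Mef2c, a MADS factor of muscle genes, was at 9.79, 9.91 and 9.64 at day 10, against 3.53, 3.13 and 2.98 at day 4 (at least 54.9-fold). Replicates of each day were close for both genes. Gata5 and the Gata cofactor Zfpm2 rose at least 19.2-fold and 16.6-fold, Tbx20 rose by 3.32 log2, and Gata6 was 7.37-fold higher.

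Tbx3, a repressor of working muscle genes in the conduction system, was at 6.84, 6.46 and 6.97 at day 10, against 10.36, 9.41 and 10.34 at day 4, and fell by 3.28 log2 (adjusted p = 0.000372). Hey1, a Notch target, fell by 1.20, but was not called without day 10 replicate B or C or day 4 replicate C (adjusted p up to 0.056). Gata4 was above the dim level throughout, at 9.26, 8.97 and 9.39 at day 10, against 8.33, 7.59 and 8.85 at day 4, and was not called (0.95, adjusted p = 0.0536). Its arrays did not overlap between the days. Gata4 was called with array weights (1.02, adjusted p = 0.0445) and with its probe sets averaged (1.07, adjusted p = 0.0145). Without day 4 replicate C it was called too (1.25, adjusted p = 0.0228), but under no other alternative run. Hand1 was at 8.03, 9.52 and 9.92 at day 10, against 7.10, 4.05 and 7.20 at day 4. Its rise of 3.04 log2 (adjusted p = 0.0369) lost its call when day 10 replicate B or C was left out (2.66 to 2.86, adjusted p at most 0.115).

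Some known regulators of the heart were too dim on an array to be tested. Nkx2-5 was at 5.25, 3.89 and 5.12 at day 10, against 2.46, 2.30 and 2.40 at day 4. The brightest probe set of Tbx5 was at 3.89, 5.23 and 4.58 at day 10, against 2.60, 2.19 and 2.19 at day 4. In each, a single day 10 array lay under 4, so that neither probe set was tested, although every day 10 array exceeded every day 4 array. Myocd, a cofactor of serum response factor, was at 3.69, 6.73 and 6.61 at day 10, with all day 4 arrays at 2.67 or less, and was not tested either. Srf itself was bright at both days and differed by -0.51 and was not called (adjusted p = 0.0734). Irx4, Prox1 and Tbx1 were dim at both days.

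The transcription factors of the streak and mesendoderm that could be tested were all lower at day 10. Of 26 with a probe set, 12 were tested and these 12 fell (46.2%), against 6.67% of all genes, with a median difference of -1.99 over the 26, or -0.83 with signals under 4 set to 4. Factors dim on every day 10 array passed the brightness filter through day 4 and had to be lower. That all tested factors fell therefore describes the list and tests nothing. Mixl1, a homeobox factor of the streak, was at 2.21, 2.20 and 2.21 at day 10, against 11.20, 12.48 and 12.28 at day 4 (at least 254-fold lower, adjusted p = 7.62e-06). Mesp1, which starts the cardiac mesoderm programme, was at 2.65, 2.38 and 2.38 at day 10, against 10.60, 12.38 and 12.71 at day 4 (at least 238-fold lower). Both were dim on every day 10 array. In such whole-culture samples, fewer cells of a type and less RNA per cell cannot be told apart.

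Eomes, the T-box factor upstream of Mesp1, was at 4.52, 4.50 and 4.53 at day 10, against 11.25, 11.87 and 11.99 at day 4 (146-fold lower, adjusted p = 5.25e-06). Its day 10 signal lay just above the dim level, alike in all replicates, and whether it reflects remaining transcript was not tested. Lhx1, a LIM factor of the streak, was at 2.75, 2.70 and 2.79 at day 10, against 7.71, 10.98 and 10.23 at day 4 (at least 49.8-fold lower). Tbx6, of presomitic mesoderm, was at 2.32, 2.28 and 2.32 at day 10, against 6.47, 10.09 and 10.07 at day 4 (at least 29.4-fold lower, adjusted p = 0.00211). In both, day 4 replicate A was clearly below B and C. Snai1, a repressor of E-cadherin, was 69.8-fold lower with signals under 4 set to 4. Sp5, a Wnt target, was at least 32.9-fold lower, and the homeobox factors Cdx2, Evx1 and Gsc at least 30.4-fold, 19.9-fold and 6.33-fold. Sox17 and Foxa2, which mark definitive endoderm, were dim at both days, as were Cdx4 and Meox1.

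Signals of the streak fell in 15 of 34 members (44.1%, against 6.67% of all genes), with 22 tested and 1 higher. The median difference was -1.78, or -1.15 with signals under 4 set to 4. Nodal was at 5.31, 4.14 and 4.65 at day 10, against 7.62, 9.30 and 9.84 at day 4 (18.7-fold lower, adjusted p = 0.00201). Fgf8, the FGF that streak cells need to migrate, averaged 2.08 ± 0.04 at day 10 and 7.91 ± 1.57 at day 4 (SD, n = 3 each), at least 15.1-fold lower. The day 4 spread was again wide, with replicate A at 6.13 and the others at 8.51 and 9.10. Axin2, a target and inhibitor of Wnt signalling, was at 3.39, 4.60 and 4.12 at day 10, against 9.81, 10.00 and 10.29 at day 4 (63.8-fold lower), with close day 4 replicates. With signals under 4 set to 4 it was 55.4-fold lower. Lef1, a nuclear effector of Wnt, fell by 4.55 log2, the antagonist Dkk1 by 4.09 and the ligand Wnt5a by 2.08. Fst, which binds activin, was 65.3-fold lower and the Notch ligand Dll3 at least 34.2-fold.

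Wnt11 was the member of the signal list called higher. This gene, a ligand known to promote heart formation, was at 5.77, 5.85 and 5.77 at day 10, against 4.22, 4.20 and 4.41 at day 4 and rose 2.87-fold (adjusted p = 0.00039). Bmp4 was at 11.04 ± 0.41 at day 10 and 10.33 ± 0.69 at day 4 (SD, n = 3 each) and was not called (adjusted p = 0.175). Neither were Bmp2 (0.47) and Bmp7 (0.79). Tdgf1, the Nodal co-receptor, fell by 3.36 log2 (adjusted p = 0.0386), but the call was lost without any array other than day 4 replicate A (-3.49 to -2.63, adjusted p up to 0.115). Lefty2 was at 2.87, 2.78 and 2.87 at day 10, against 2.90, 7.21 and 6.93 at day 4, and was not tested because only day 4 replicates B and C passed 4.

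Surface and adhesion genes of nascent mesoderm fell in 10 of 22 members (45.5%) and rose in 2, with 20 tested and a median difference of -1.27. Of all genes, 6.67% were called lower and 7.75% higher. Aplnr, the receptor of apelin and of the Apela peptide, was at 2.61, 2.86 and 3.68 at day 10, against 9.67, 12.66 and 12.11 at day 4 (at least 179-fold lower, adjusted p = 0.000364). Cxcr4, a chemokine receptor, was at least 37.9-fold lower. The levels of Aplnr at day 4 again had replicate A below the others. Kdr, the receptor of VEGF in mesoderm and endothelium, fell by 2.08 log2, and fibronectin, Fn1, fell by 1.38, at 11.96 ± 0.40 at day 10 and 13.34 ± 0.13 at day 4 (SD, n = 3 each). Has2, the hyaluronan synthase of the cardiac jelly, was at 9.62, 10.64 and 9.79 at day 10, against 7.29, 7.45 and 7.55 at day 4 and rose 5.99-fold. The rise of Pdgfrb (1.63) lost its call when day 10 replicate B or C was left out (adjusted p at most 0.075). N-cadherin, Cdh2, was at 11.51 ± 0.25 at day 10 and 11.77 ± 0.42 at day 4 and was not called (adjusted p = 0.444). Over the 3 mesendoderm lists, 37 of 82 genes fell (45.1%), 3 rose, 14 were tested without a call and 28 were not tested.

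Day 4 replicate A was the lowest day 4 array in most of these genes. Among the 37 mesendoderm genes called lower, it was so in 34 (91.9%), against 45.2% of all probe sets called lower and 33.5% of all tested ones. Its median deviation from the day 4 mean of each gene was -0.79 log2, against 0.38 for B and 0.59 for C. Without that array 42 mesendoderm genes were called lower. In the 54 cardiac muscle genes called higher, the median deviation of the day 10 arrays was 0.19 for A and -0.21 for C, and replicate A was the highest in 31 (57.4%, against 46.1% of all probe sets called higher).

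**Figure D4:**
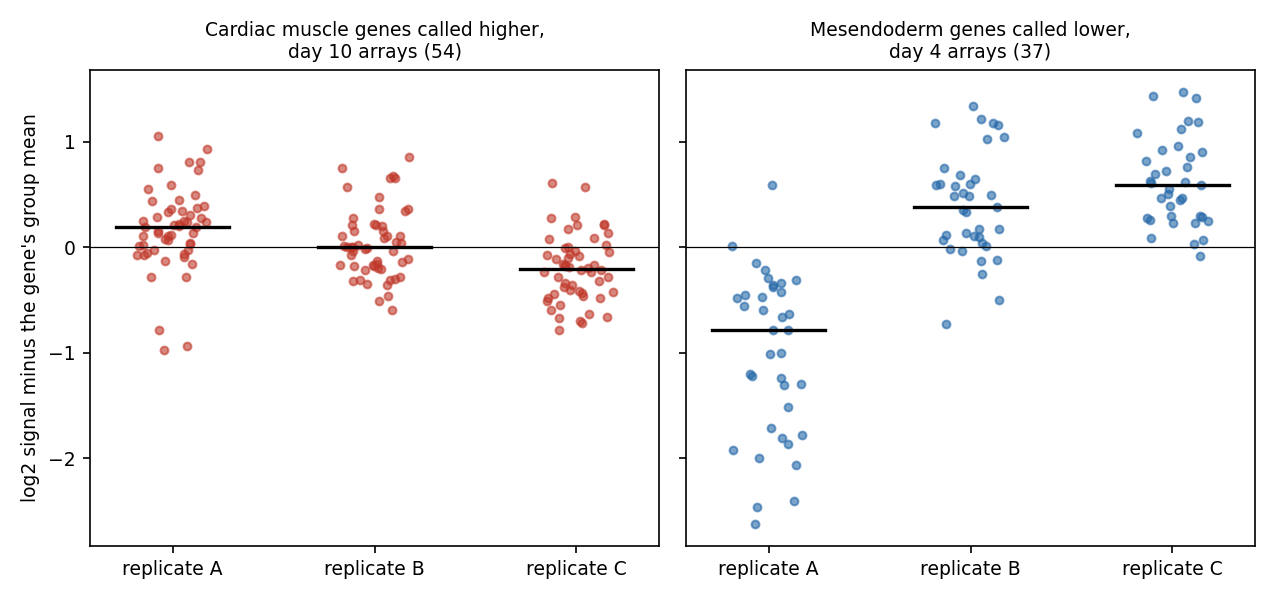
Deviation of each gene's log2 signal from its group mean (vertical) by replicate, for 54 cardiac muscle genes on the day 10 arrays (left) and 37 mesendoderm genes on the day 4 arrays (right), with the median as a bar. Day 4 replicate A lies below the mean in most genes, with a median of -0.79.

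The remaining arrays place these levels in the course of the culture, as a description without a test. Growth cells were nearer to day 10 than to day 4 in most mesendoderm genes. In 31 of the 37 genes the growth mean lay on the day 10 side of the midpoint between the day 10 and day 4 means. Of the 37, 19 were dim on all growth arrays, while others stayed above day 10, such as Eomes at a growth mean of 7.80 against 4.52. By day 6 the mean had passed that midpoint in 20 of the 37 genes, and by day 8 in 31, or 32 without day 8 replicate A. That array stood apart from the other day 8 arrays in genes such as Tnnt2, at 6.03, against 8.90 and 10.77 on B and C. In growth cells the mean of 4 of the 54 cardiac muscle genes lay on the day 10 side of the midpoint, Cox7a1 and Kcnh2 among them. Of the 54 cardiac muscle genes, 3 had passed the midpoint at day 6, and 22 at day 8, or 35 without replicate A. Of the 16 cardiac transcription factors called higher, 7 had done so at day 6 and 13 at day 8, or 14 without replicate A.

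Mixl1 was at 4.06 and 3.38 at day 6, while Cyp26a1 was still at 8.29 and 7.37 and Eomes at 6.52 and 6.54, so that the streak genes did not all reach their day 10 level at the same day. Tnni1 had reached 9.38 and 9.20 at day 6, when Tnnt2 was at 6.21 and 5.60, and Myl7 was dim, at 3.36 and 2.60, below its day 4 replicates B and C. At day 12 the mean lay above that of day 10 in 45 of the 54 cardiac muscle genes, and both day 12 arrays lay above all day 10 arrays in 30. Tnni1 was among the exceptions, at 13.25 and 13.16 at day 12. Hbb-bh1 was also lower at day 12, at 8.21 and 7.01, than on any day 10 array.

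**Figure D5:**
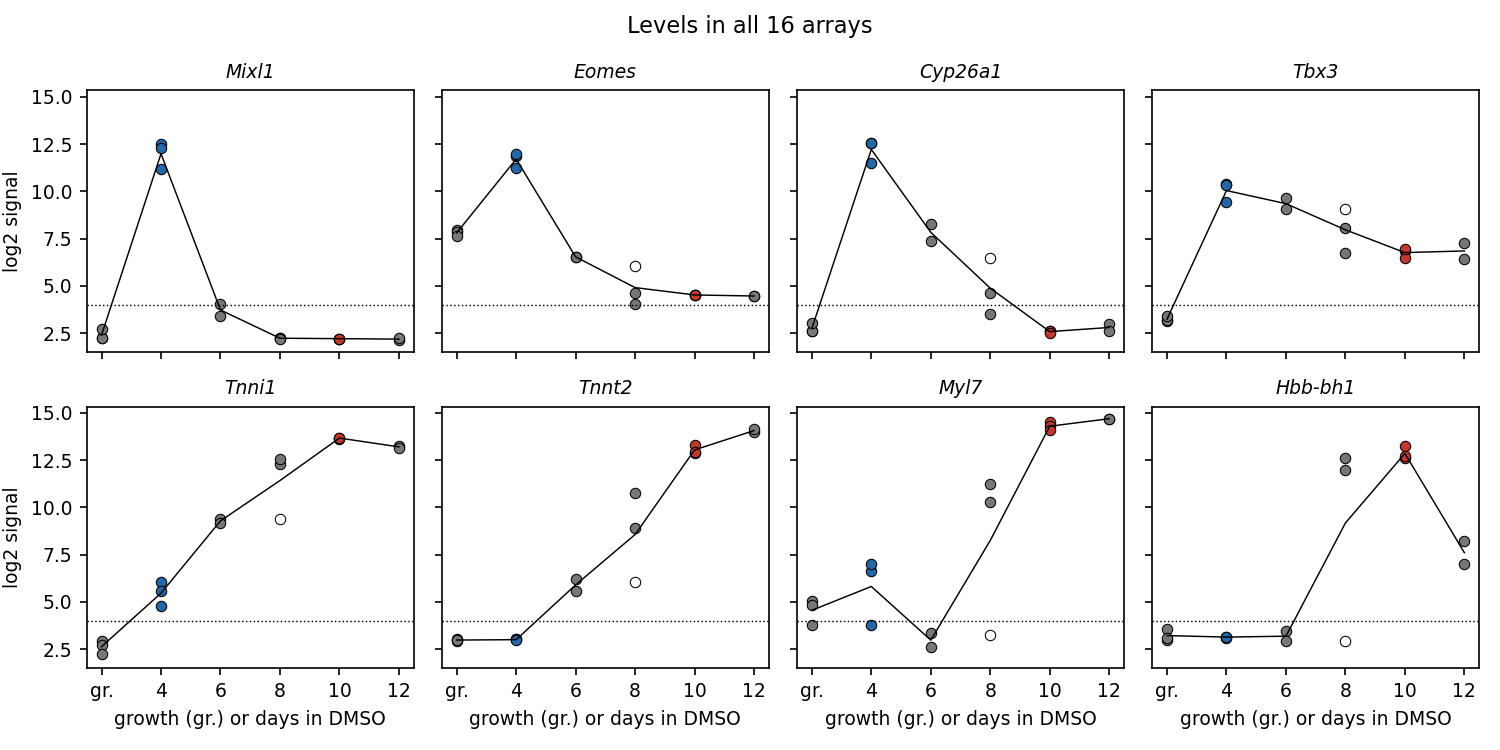
Log2 signal (vertical) of 8 genes on all 16 arrays by group (horizontal, growth and then days in DMSO), with the group means joined, day 10 and day 4 arrays filled in colour, day 8 replicate A open and the dim level dotted. Mixl1, Eomes and Cyp26a1 peak at day 4, Tnnt2 and Myl7 are highest at days 10 and 12, and Hbb-bh1 is lower at day 12 than at day 10.

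Retinoic acid genes moved both ways: of 16 with a probe set, 10 were tested, 3 rose (18.75%) and 4 fell (25%). Of all genes, 7.75% were called higher and 6.67% lower. Cyp26a1, which breaks down retinoic acid, was at 2.61, 2.61 and 2.51 at day 10, against 11.51, 12.57 and 12.55 at day 4 (at least 297-fold lower, adjusted p = 5.71e-06). The receptor gene Rarg and the binding protein gene Crabp2 fell by 3.21 and 3.09 log2, while the receptor gene Rarb rose at least 3.63-fold. The synthetic enzyme gene Aldh1a2 was at 2.65 ± 0.24 at day 10 and 3.59 ± 0.99 at day 4 (SD, n = 3 each) and was not tested.

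Pluripotency genes fell in 6 of 24 members (25%, against 6.67% of all genes), with 10 tested and 14 too dim to test. Pou5f1, also called Oct4, was at 8.59, 7.08 and 8.05 at day 10, against 9.92, 11.62 and 12.14 at day 4 (10.0-fold lower, adjusted p = 0.00657), and it lay well above the dim level on every day 10 array. Lin28a, which blocks maturation of let-7, fell by 5.66 log2, and Sall4 and the DNA methyltransferase Dnmt3b by 3.94 and 3.57. Sox2 was at 8.00 ± 0.39 at day 10 and 8.30 ± 0.56 at day 4 (SD, n = 3 each) and was not called (adjusted p = 0.499). Esrrb, Zfp42 and Dppa3 were dim on all 6 arrays.

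Of 37 cell cycle genes with a probe set, 36 were tested, 15 fell (40.5%, against 6.67% of all genes) and 21 were not called. The median difference was -0.79. All 6 replicative helicase genes from Mcm2 to Mcm7 fell at their brightest probe set, with differences such as -1.25 for Mcm7 and -1.05 for Mcm5. So did the mitotic genes Plk1 (-1.43), Cdc20 (-1.42) and Bub1 (-1.60). With the probe sets of each gene averaged, Mcm5 (-0.79), Mcm6 (-0.89) and Bub1 (-0.82) were not called. The proliferation marker Mki67 was at 10.25, 10.27 and 10.27 at day 10, against 10.75, 10.54 and 10.53 at day 4, and the difference of -0.34 was not called (adjusted p = 0.0948). Cdk1 (-0.35) and the inhibitor Cdkn1b (0.57) were not called either.

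Markers of other cell types rose at day 10 beside those of cardiac muscle, and their part in the differences was not tested. In the epicardium list 7 of 13 members rose (53.8%, against 7.75% of all genes). The mean over the list was 6.11 to 6.33 on the day 10 arrays, against 3.36 to 3.89 at day 4. Upk3b was at 10.07, 9.76 and 10.43 at day 10, against 1.98, 1.98 and 2.01 at day 4, and Wt1, a factor of epicardium and other mesothelium, rose at least 10.4-fold. Bnc1, a zinc finger gene of mesothelium, was at least 105-fold higher. Tcf21, another defining marker, was dim at both days. The epithelial keratin gene Krt8 rose by 3.43 log2 (adjusted p = 0.0137), and its call was lost without day 10 replicate C or day 4 replicate C (3.27 to 3.30, adjusted p up to 0.0501).

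Smooth muscle genes rose in 5 of 13 members (38.5%, against 7.75% of all genes). Their list mean was 6.48 to 6.69 at day 10, against 4.36 to 4.75 at day 4. Acta2, the smooth muscle actin that early cardiac muscle also expresses, was 65.7-fold higher, Myl9 at least 127-fold and Tagln 30.1-fold, whereas Myh11, a marker of mature smooth muscle, was dim on all arrays. Embryonic globin genes were among the largest rises: Hbb-bh1 was at 12.62, 13.23 and 12.73 at day 10, against 3.14, 3.12 and 3.17 at day 4 (at least 464-fold), and Hba-x rose at least 216-fold. In that primitive blood list 4 of 14 members rose (28.6%, against 7.75% of all genes), with a mean of 4.74 to 5.01 at day 10 against 2.88 to 3.27 at day 4. The erythroid factors Gata1 and Klf1 were dim throughout. Globin probe sets can bind transcripts of several globin genes.

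Visceral and definitive endoderm genes rose in 6 of 19 (31.6%) and fell in 2 (10.5%), against 7.75% and 6.67% of all genes. Their list mean was 4.75 to 5.45 at day 10, against 4.12 to 4.27 at day 4. Apoa1, a yolk sac and liver apolipoprotein, was at 5.42, 5.67 and 7.90 at day 10 and at 3.04, 3.04 and 3.02 at day 4, highest in day 10 replicate C. Alb, Hnf4a and Sox17 were dim on all arrays. In the endothelium list only Tek, a receptor of angiopoietins, rose, at 7.75, 8.32 and 7.94 at day 10, against 2.64, 2.86 and 2.50 at day 4. Kdr and Nfatc1 fell, and Pecam1 and Cdh5 passed 4 only on day 10 replicate A, at 4.42 and 4.88. The list mean was 3.74 to 4.14 at day 10, against 3.52 to 3.84 at day 4. The shares of this list called higher and lower, 5.26% and 10.5%, were near those of all genes. The call of Nfatc1 was lost without any array other than day 4 replicate A (adjusted p up to 0.0896). Of 15 skeletal muscle genes only Acta1 was tested, and Myod1, Myf5, Myog, Pax3 and Pax7 were dim throughout, with a list mean of 2.85 to 2.86 at day 10 and 2.66 to 2.76 at day 4. Of the 17 neural genes 4 were tested, and the shares called higher and lower, 5.88% and 11.8%, were near those of all genes. The growth cone gene Gap43 was called higher, at least 1.83-fold, and with signals under 4 set to 4 it was not called (0.88 log2). Otx2 and Tubb3, the neuronal tubulin, were called lower (-2.57 and -1.08), and the call of Tubb3 was lost without any array other than day 4 replicate A (adjusted p up to 0.121). Pax6 and Sox1 were dim, and the list mean was 3.41 to 3.50 at day 10, against 3.27 to 3.68 at day 4.

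Of the 15 largest fitted rises, 7 were contractile or cardiac factor genes named above: Actc1, Hand2, Myh6, Myl4, Myl7, Tnni1 and Tnnt2. The order among genes dim on all arrays of a day rests on signals under 4 and is not given. Membership of the 15 rests partly on such signals too. With signals under 4 set to 4, Pgam2, outside the 15 rises, rose by 6.46 log2 and Upk3b, among them, by 6.08. Likewise Hoxd9, outside the 15 falls, fell by 5.80 and Evx1, among them, by 4.31. Dlk1, an imprinted gene of the Notch ligand family, was at 13.07, 12.83 and 13.28 at day 10, against 2.89, 2.90 and 2.62 at day 4 (at least 534-fold, adjusted p = 1.35e-06). Igfbp5, which binds insulin-like growth factors, was at 12.57, 12.41 and 12.20 at day 10, against 2.53, 2.24 and 2.09 at day 4 (at least 336-fold). The others were Bnc1, Hba-x, Hbb-bh1, Myl9, Upk3b and Arhgap31, the last of which rose at least 114-fold. The 15 largest fitted falls included, in alphabetical order, Aplnr, Axin2, Cyp26a1, Dll3, Eomes, Evx1, Fst, Lhx1, Mesp1, Mixl1, Snai1, Sp5 and Tbx6. The remaining falls were Vrtn, named for its link to vertebral number in pigs, which was at least 56.0-fold lower, and Car14, a carbonic anhydrase, which fell by 6.15 log2.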

How the data were processed

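RNA of 16 P19CL6 cultures was measured on Affymetrix mouse arrays, and the 3 day 10 and 3 day 4 arrays were analysed here, grouped by their labels. The deposited values are GCRMA signals, per the submitters' processing notes. Their log2 scale is not stated by the authors and was read from the range of the deposited values (0.86 to 15.9). Of 45101 probe sets, 34945 name a single gene, 932 several and 9160 none, and 64 are controls. The main fit did not pair the samples by replicate letter. Their deviations from the day means correlated at -0.03, 0.34 and -0.01 for A, B and C, which does not exclude a pairing. A model with a mean per day was fitted with limma 3.58.1 in R 4.3.3 (4 residual and 2.73 prior degrees of freedom) and tested on simulated data. The limma p-values set the difference between the days against the spread among samples of a day, moderated across probe sets. The members and lists were chosen with earlier results of these data known. Genes are named as the 15 largest differences each way whose arrays do not overlap, the 4 markers, up to 6 called members a list, and members that were not called or moved against their list. Of 471 list genes, 24 had no single-gene probe set and were not analysed here. Gene level counts use the brightest probe set over the 6 arrays, and a fold against a dim group takes 4 as its level. Array dates and batches were not given in the sources used here.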

Additional observations from a re-analysis of the deposited data

Results flagged for a closer look

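Probe sets outside the comparison of single genes also differed between the days, in smaller shares than the 25.3% of single-gene probe sets called. Of 1310 tested probe sets that carry no gene name here, 99 were called higher at day 10 and 164 lower. Of 499 tested probe sets that name several genes, 48 were called higher and 36 lower. The last include 3 probe sets of Hba-a2 and Hba-a1, and a probe set shared by Myh7 and Myh6 that was at 10.81, 10.69 and 10.15 at day 10, against 2.76, 2.73 and 2.63 at day 4 (limma adjusted p = 3.99e-06).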

How the results depend on the processing

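The counts of 2257 higher, 2031 lower, 54 cardiac muscle and 37 mesendoderm probe sets or genes stayed within 1.5 times under all alternatives run except 3. With 1 probe set per gene 1421 were higher and 1224 lower, with probe sets averaged per gene 1092 and 893, settings that test fewer features, and with a difference of at least 2 log2 951 and 497. Leaving out each array in turn gave 2061 to 2249 higher, 1693 to 2029 lower, 54 to 56 cardiac muscle genes and 32 to 42 mesendoderm genes. With the replicate letter as a block the numbers were 2244, 2031, 55 and 36. Shifting the arrays to a common median gave 2073 and 2383. Hoxa5, which differed by 0.23 without a call, reversed to -1.26 when its probe sets were averaged, and the cause was not tested. Signals under 4 limit what can be said of dim genes: setting them to 4 left 51 cardiac muscle and 34 mesendoderm genes, and testing only signals above 6 left 44 and 30. Over 342 genes and all alternatives, 187 values lost a call, 58 gained one and 1 turned its direction, of 7082.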

Other observations

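Genes of mesenchyme and extracellular matrix rose in 18 of 27 members (66.7%, against 7.75% of all genes), with 20 tested. The median difference was 2.15, or 1.43 with signals under 4 set to 4. Postn, a matrix protein of valves and periosteum, was at 9.84, 10.13 and 10.20 at day 10, against 3.29, 3.33 and 2.90 at day 4 (at least 66.5-fold). The fibrillar collagen genes Col3a1 and Col1a2 rose at least 63.6-fold and 28.4-fold, and Snai2, a relative of Snai1 that acts in mesenchyme, rose by 4.28 log2 while Snai1 fell. Vimentin, Vim, was bright at both days, at 13.89 ± 0.22 at day 10 and 12.34 ± 0.21 at day 4 (SD, n = 3 each). Col1a1 was dim on all 6 arrays.

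Hox genes, which give cells their position along the body axis, rose in 3 of 24 members (12.5%) and fell in 5 (20.8%), with 11 tested. Of all genes, 7.75% were called higher and 6.67% lower. Hoxb4 was at 7.94, 7.72 and 7.41 at day 10, against 3.91, 4.44 and 4.30 at day 4 (11.1-fold higher), whereas Hoxd9 was at 4.15, 3.99 and 5.33 at day 10, against 10.10, 10.21 and 10.57 at day 4 (55.8-fold lower). Hoxb3, a neighbour of Hoxb4 in its cluster, also rose, and Hoxd8, a neighbour of Hoxd9, also fell. Hoxb1 was at 2.47, 2.46 and 2.47 at day 10, against 3.81, 9.29 and 8.58 at day 4, and was not tested because only day 4 replicates B and C passed 4.

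Of 4385 genes with at least 2 tested probe sets, 1533 had a called one. In 660 of these every tested probe set was called the same way, and in 11, such as Tnrc6c and Pfkp, probe sets of the same gene were called in opposite directions.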
